A study of Mus musculus with 8 samples.

Results

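Bone morphogenetic proteins (BMPs) are secreted ligands of the TGF-beta superfamily that signal through pairs of type I and type II serine/threonine kinase receptors. The activated type I receptor phosphorylates Smad1, Smad5 and Smad9, which enter the nucleus with Smad4 and induce genes such as the Id family. In the embryonic ventricle Bmp10 is made by trabecular cardiomyocytes, the muscle that projects into the lumen, and is required for the growth of these trabeculae. Secreted BMP10 is also a ligand of Acvrl1 (ALK1), a type I receptor of endothelial cells, with Eng (endoglin) as co-receptor.

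The 10 genes examined here were the ligands Bmp10, Bmp2, Bmp4, Bmp5, Bmp6 and Bmp7, the receptors Bmpr1a, Bmpr2 and Acvrl1, and the co-receptor Eng. They were taken by symbol from the deposited gene table, in which each of the 10 matched 1 of 53465 Ensembl identifiers, and all 10 were among the 15388 genes that passed the filter on low counts. The libraries came from mouse heart ventricles at embryonic day 15.5, with 1 ventricle per library according to the design text. The comparison asked how the transcriptome differs when Nrg1 (neuregulin-1, a growth factor made by the endocardium) is deleted in endothelial cells.

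The WT group (n = 4) carried the genotype label WT. The other group (n = 4) was labelled Nrg-1flox;Cdh5-CreERT2, a floxed Nrg1 allele combined with a tamoxifen-inducible Cre that is driven by the promoter of the endothelial gene Cdh5. These are called Flox-labelled libraries below, after the titles of the samples. Strain, zygosity of the floxed allele, the day and dose of tamoxifen, and whether WT embryos received tamoxifen are not given in the sources used here. Each sample is named by its own number, and no source says that the libraries came from separate litters, so that p-values measure the spread between these libraries. RNA came from all cells of the ventricle, and thus fewer cells of a type and less RNA per cell cannot be told apart.

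Library totals ranged from 21583839 to 23146977 expected counts in WT and from 16761763 to 24144272 in Flox-labelled libraries. The targeted gene did not bear out the labels. Nrg1 was at 4.87 ± 0.636 CPM (expected counts per 1000000 of the scaled library total) in WT and 6.17 ± 0.611 CPM in Flox-labelled libraries (SD, n = 4). The fitted log2 fold change was 0.34 (SE 0.12, edgeR adjusted p = 0.311). The count covers the whole gene in all cells of the ventricle, and which exons are floxed is not given in the sources used here. In 7 of the 8 libraries more than 20 counts were found both for Xist, which is transcribed in female cells, and for the sum of 4 Y-linked genes. The exception was WT library 4, with 0.176 CPM of Xist. Reads of both kinds in 1 library are at odds with a single embryo per library, so whether the 4 libraries of a group are 4 separate embryos is uncertain, and n counts libraries. The Y-linked sum was 69.3 to 171 CPM in WT and 42.9 to 120 CPM in Flox-labelled libraries. All 8 cardiomyocyte markers were detected, with a sum of 44049 to 50330 CPM over the libraries, as were all 10 endothelial markers, whereas none of 6 hepatocyte markers averaged 1 CPM.

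Fold changes below are Flox-labelled over WT, from edgeR's quasi-likelihood test, and a gene was called when its p-value, adjusted over all 15388 genes (false discovery rate, FDR), was below 0.05. None of the 10 genes was called, where 0.526% of all genes tested were. At an unadjusted p below 0.05 there were 2 of 10, Bmp10 and Bmp6, where the share among all genes was 10.5%. Separate ranges in WT and Flox-labelled libraries were found for 1 of the 10, Bmp6, and for 6.05% of all genes. DESeq2 called 1 of the 10 (Bmp6), edgeR's likelihood ratio test called 2 (Bmp6 and Bmp10), and limma voom called none. The median log2 fold change of the 10 was -0.02, beside -0.0012 over all genes. The other 8 genes had an FDR of 0.587 or more, and Bmp10 and Bmp6 differed in opposite directions.

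**Figure D1:**
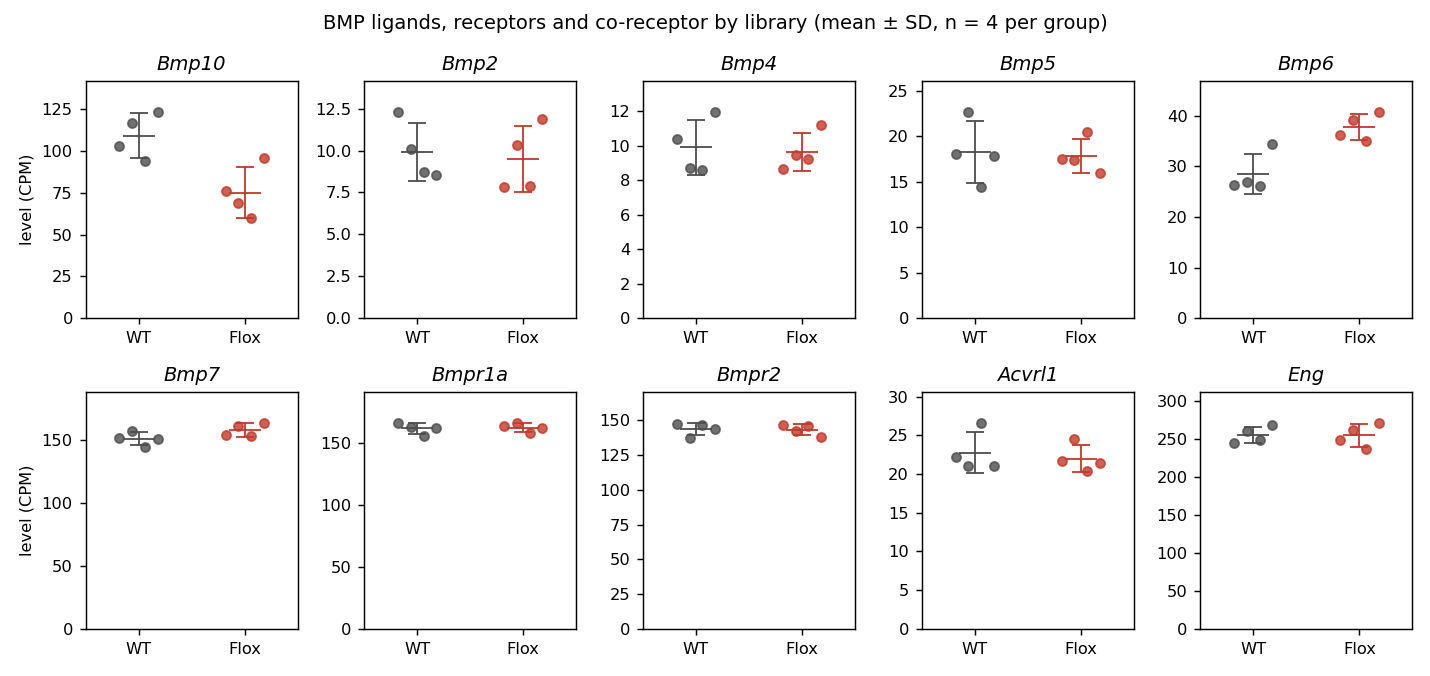
Level in CPM (linear axis from 0) of each of the 10 genes in the 4 WT (grey) and 4 Flox-labelled (red) libraries, with library 1 to 4 from left to right, and the mean with SD as bars. Bmp10 is at 93.8 to 123 CPM in WT and 59.9 to 95.5 CPM in Flox-labelled libraries, Bmp6 at 26.2 to 34.4 and 35.1 to 40.7 CPM, and the other 8 genes have overlapping ranges.

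Bmp10, the ligand made mainly by cardiomyocytes, had the most negative log2 fold change of the 10 genes. The gene (ENSMUSG00000030046) lies on GRCm38 chromosome 6, from 87428994 to 87437677 on the plus strand, and shares no exonic base with another annotated gene. Its level was 103, 117, 93.8 and 123 CPM in WT libraries 1 to 4, and 76.0, 68.8, 59.9 and 95.5 CPM in Flox-labelled libraries 1 to 4. Flox-labelled library 4 lay above WT library 3, so the groups overlapped, and the other 3 Flox-labelled libraries lay below every WT library. The means were 109 ± 13.3 and 75.05 ± 15.2 CPM (SD, n = 4), and the log2 fold change was -0.55 (SE 0.117, FDR 0.0606) with a 95% confidence interval of -0.80 to -0.30. This corresponds to a level 31.6% lower, with an interval of 18.5% to 42.6% lower, and all 4 Flox-labelled libraries were below the WT mean. Bmp10 was measured from 1284 to 2806 expected counts per library, whole in every library, so that no read had been divided with another gene.

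Whether Bmp10 passed depended on the test, the filter and the libraries kept. With all 8 libraries it passed with the likelihood ratio test (FDR 0.00198) and without a filter (FDR 2.91e-07), among other settings. Without Flox-labelled library 4 the log2 fold change was -0.68 (FDR 0.00851), and without any other library it lay between -0.61 and -0.45 and did not pass. In each group, library 4 had both the highest Bmp10 and the highest Y-linked sum, which was 171 CPM in WT and 120 CPM in the Flox-labelled library. Among WT libraries 1 to 3, Bmp10 and the Y-linked sum did not run in the same order. WT library 2 had the lowest Y-linked sum of its group (69.3 CPM) with 117 CPM of Bmp10. WT library 3 had a Y-linked sum of 122 CPM with the lowest Bmp10 of its group (93.8 CPM). In Flox-labelled libraries 1 to 3 the Y-linked sum was 68.3, 42.9 and 58.5 CPM, with Bmp10 at 76.0, 68.8 and 59.9 CPM. The Y-linked sum averaged 119 CPM in WT and 72.4 CPM in Flox-labelled libraries, so it differed with group as well, with overlapping ranges. The cause of the high values in library 4 was not tested. When the Y-linked sum entered the model, the log2 fold change of Bmp10 was -0.40 (SE 0.125, FDR 0.329).

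The sequence upstream of Bmp10 is shown because this ligand carries the largest difference among the 10 genes. It spans the 250 bases before the annotated start in RefSeq (GRCm38.p6, chr6:87428744-87428993, plus strand), written 5′ to 3′. Capitals mark matches to AGATAA, a sequence recognised by GATA factors, which was chosen for the search after the sequence had been read.

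Bmp10 upstream: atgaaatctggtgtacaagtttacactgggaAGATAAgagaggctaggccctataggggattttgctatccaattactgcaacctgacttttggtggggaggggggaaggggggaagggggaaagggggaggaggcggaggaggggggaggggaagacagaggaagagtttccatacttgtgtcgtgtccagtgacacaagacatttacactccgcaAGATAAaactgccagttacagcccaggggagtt

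On both strands together the window held 2 matches, at bases 32 to 37 and 218 to 223 counted from its 5′ end. Of 32851 annotated promoter windows of 250 bases, 9.99% held at least 1 match and 0.938% held 2 or more. The RefSeq table held promoters for 7 of the 10 genes (not Bmp2, Bmp7 or Acvrl1), and Bmp10 was the only 1 of these 7 with a match. As AGATAA was chosen from the Bmp10 sequence itself, these shares do not test whether its matches are unusual. These data do not measure binding, and a match is only a description of the letters.

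Bmp6, a ligand best known for inducing hepcidin in the liver, showed the opposite pattern. The gene (ENSMUSG00000039004) lies on chromosome 13, from 38345107 to 38500302 on the plus strand. Its level was 26.3, 26.9, 26.2 and 34.4 CPM in WT libraries 1 to 4, and 36.2, 39.1, 35.1 and 40.7 CPM in Flox-labelled libraries 1 to 4. Every Flox-labelled library lay above every WT library, although WT library 4 came within 1 CPM of the lowest of them. The means were 28.5 ± 3.97 and 37.8 ± 2.61 CPM (SD, n = 4), and the log2 fold change was 0.41 (SE 0.0822, FDR 0.0527) with a 95% confidence interval of 0.23 to 0.58, or a level 32.6% higher. Without WT library 4 the log2 fold change was 0.51 (FDR 0.0040), and without any other library it was 0.37 to 0.44 and did not pass. When the Y-linked sum entered the model it was 0.52 (FDR 0.0708). The expected counts of Bmp6 (569 to 933 per library) were not whole in 8 of 8 libraries. Bmp6 shares 224 exonic bases with Txndc5 on the opposite strand, and the sources used here do not state whether counting used the strand of the reads. Txndc5 itself averaged 222 ± 7.90 CPM in WT against 221 CPM in Flox-labelled libraries, with a log2 fold change of -0.01 (FDR 0.959).

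The ratio of Bmp6 to Bmp10 within a library was examined after their values were seen, and it is given without a test. In CPM it was 0.256, 0.231, 0.279 and 0.279 in WT libraries 1 to 4, and 0.476, 0.569, 0.586 and 0.426 in Flox-labelled libraries 1 to 4. This ratio does not depend on how the libraries were scaled to each other. It did not overlap between the groups, but both genes were chosen for their opposite differences, which favours such a separation.

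**Figure D2:**
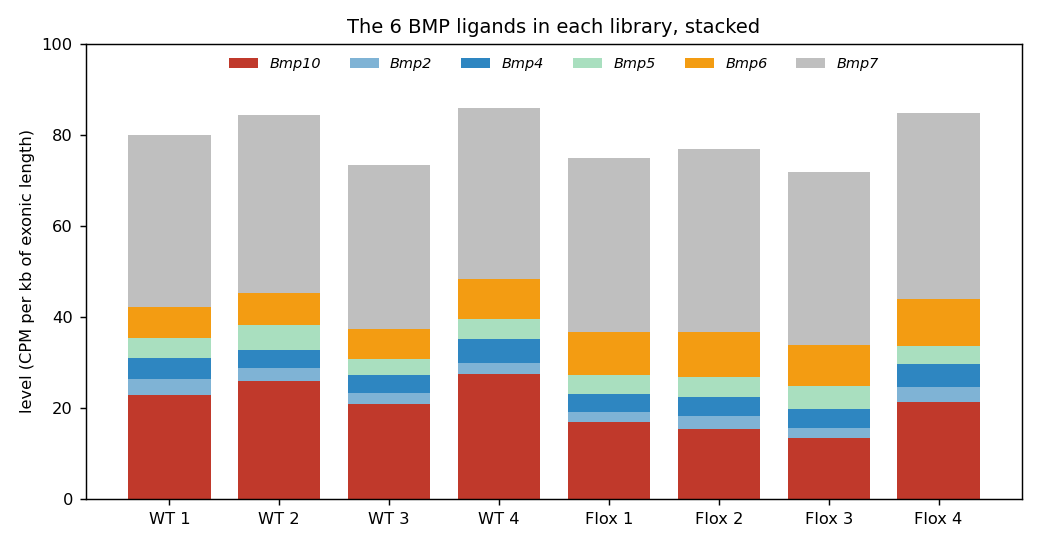
Level of the 6 ligands per kb of exonic length (CPM per kb, stacked bars from 0) in each of the 8 libraries. The sum is 73.4 to 85.9 CPM per kb in WT and 71.9 to 84.8 in Flox-labelled libraries, while the Bmp10 part at the bottom is 28.5% to 32.0% of it in WT and 18.6% to 25.1% in Flox-labelled libraries.

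Levels of different genes were compared per kb of exonic length, the union of all annotated exons. On this scale the 6 ligands together were at 80.9 ± 5.62 CPM per kb in WT and 77.1 ± 5.51 CPM per kb in Flox-labelled libraries (SD, n = 4), with overlapping ranges. Bmp10 made up 30.0 ± 1.69% of this ligand sum in WT and 21.5 ± 2.91% in Flox-labelled libraries (SD, n = 4). The share of Bmp6 was 9.01 ± 0.932% in WT and 12.6 ± 0.334% in Flox-labelled libraries. Per length, Bmp10 averaged 24.3 CPM per kb in WT against 16.7 in Flox-labelled libraries, and Bmp6 averaged 7.30 against 9.69. These shares were also formed after the values were seen and share a denominator that holds both genes, so they are given as a description only.

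The remaining ligands did not differ beyond their spread. Bmp7, which belongs to the same subgroup as Bmp5 and Bmp6, was the most abundant ligand per length. It averaged 151 ± 5.33 CPM in WT against 158 ± 5.26 CPM in Flox-labelled libraries (SD, n = 4; log2 fold change 0.06, SE 0.0363, FDR 0.587). Bmp5 ranged over 14.4 to 22.7 CPM in WT and over 16.0 to 20.5 CPM in Flox-labelled libraries (log2 fold change -0.03, SE 0.116, FDR 0.967). Bmp4, a ligand of the outflow tract in the embryonic heart, ranged over 8.56 to 11.9 CPM in WT and over 8.64 to 11.2 CPM in Flox-labelled libraries (-0.04, SE 0.117, FDR 0.946). Bmp2, which acts in the formation of the atrioventricular cushions, ranged over 8.52 to 12.3 CPM in WT and over 7.84 to 11.9 CPM in Flox-labelled libraries (-0.07, SE 0.149, FDR 0.932). The lower ends of the 95% confidence intervals were 23.6% below WT for Bmp2, 18.6% for Bmp4 and 17.7% for Bmp5. A reduction as large as the estimate for Bmp10 lay outside these intervals. The interval of Bmp10 itself began at 18.5% lower, however, and so overlapped those of Bmp2 and Bmp4. Bmp5 shares 46.7% of the exonic bases of the shorter gene with Gm26903 on the opposite strand, which held at most 0.118 CPM in any library.

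On GRCm38, Bmp2 (ENSMUSG00000027358) lies on chromosome 2 from 133552159 to 133562885, Bmp4 (ENSMUSG00000021835) on chromosome 14 from 46383520 to 46390669, Bmp5 (ENSMUSG00000032179) on chromosome 9 from 75775364 to 75900310, and Bmp7 (ENSMUSG00000008999) on chromosome 2 from 172868012 to 172940321. The receptor genes are Bmpr1a (ENSMUSG00000021796) on chromosome 14 from 34410734 to 34503341, Bmpr2 (ENSMUSG00000067336) on chromosome 1 from 59763400 to 59879014, and Acvrl1 (ENSMUSG00000000530) on chromosome 15 from 101128522 to 101145336. Eng (ENSMUSG00000026814) lies on chromosome 2 from 32646595 to 32682669. Bmp4, Bmp7 and Bmpr1a are on the minus strand and the others on the plus strand. Eng shares 61 exonic bases with Fpgs on the opposite strand, a gene at a mean of 16.9 CPM, whereas the opposite-strand partners of Bmp4, Bmpr1a and Acvrl1 each averaged below 0.1 CPM.

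Bmpr1a and Bmpr2 had the smallest coefficients of variation of the 10 genes. Bmpr1a (ALK3), a type I receptor for BMP2 and BMP4, averaged 162 ± 4.51 CPM in WT against 163 ± 3.36 CPM in Flox-labelled libraries (SD, n = 4), and its log2 fold change of 0.0050 had a 95% confidence interval of -0.07 to 0.08 (FDR 0.980). Bmpr2, the type II receptor of this family, was at 144 ± 4.50 and 143 ± 3.98 CPM (log2 fold change -0.0053, interval -0.08 to 0.07, FDR 0.980). In percent, these intervals ran from 4.41% lower to 5.34% higher for Bmpr1a and from 5.34% lower to 4.87% higher for Bmpr2. Within a group, the coefficients of variation were 2.06% to 3.13% for these receptors, against 12.2% in WT and 20.2% in Flox-labelled libraries for Bmp10. A difference of the size seen for Bmp10 or Bmp6 therefore lay well outside the intervals of these receptors.

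Of the receptors of endothelial cells, Acvrl1 averaged 22.7 ± 2.66 CPM in WT against 22.0 ± 1.75 CPM in Flox-labelled libraries (SD, n = 4; log2 fold change -0.05, SE 0.0816, 95% confidence interval -0.22 to 0.13, FDR 0.906). Eng had levels of 245, 260, 249 and 268 CPM in WT libraries 1 to 4, against 249, 262, 236 and 271 CPM in Flox-labelled libraries 1 to 4. The values of the groups interleaved, with a log2 fold change of -0.0051 (SE 0.0454, interval -0.10 to 0.09, FDR 0.987). Over the same libraries, 8 of 10 endothelial markers had a negative log2 fold change (median -0.12). Separate ranges were found for 5 of the 10, beside 6.05% of all genes. None of the 10 was called, where 0.526% of all genes were. Their sum was 1166 to 1190 CPM in WT and 1086 to 1153 CPM in Flox-labelled libraries, which did not overlap. The part of endothelial content in the values of Acvrl1 and Eng was not tested.

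**Figure D3:**
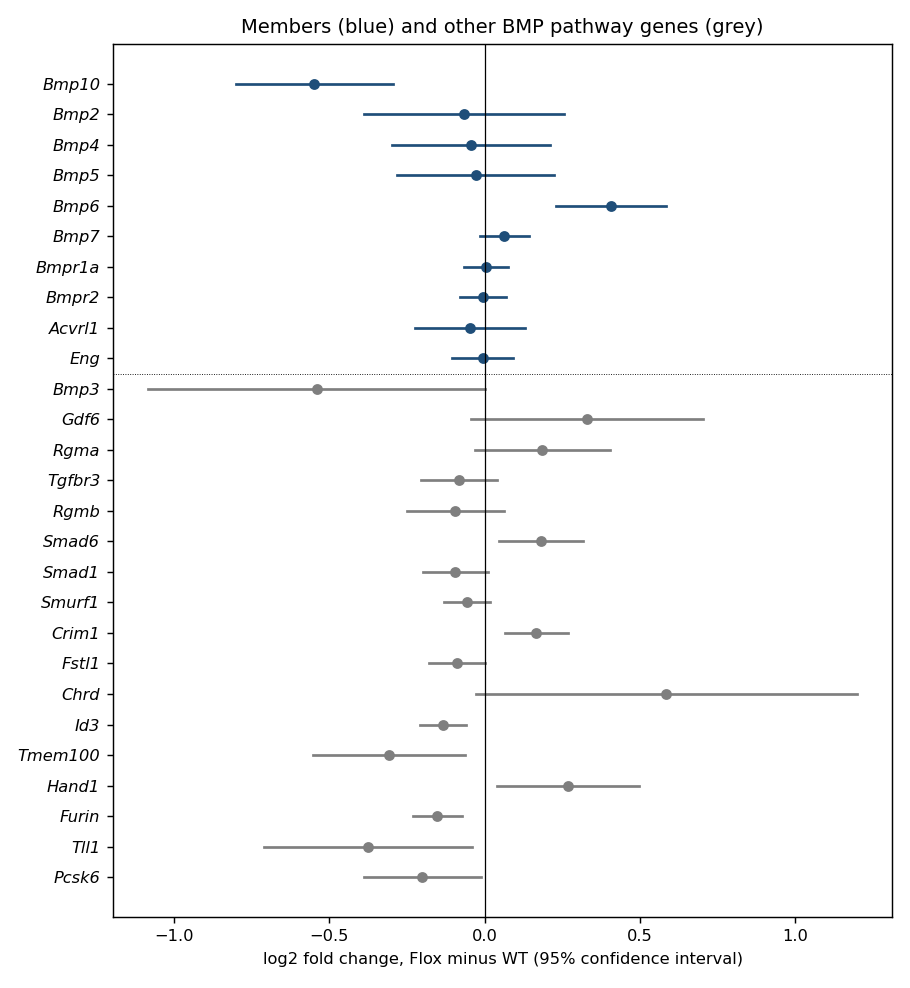
Log2 fold change (Flox-labelled minus WT) with its 95% confidence interval for the 10 genes (blue) and 17 other pathway genes (grey). The 17 are those with the smallest p in each pathway list. The intervals of Bmp10 (-0.80 to -0.30) and Bmp6 (0.23 to 0.58) exclude 0, and those of Bmpr1a, Bmpr2 and Eng are narrow around 0. Intervals of 8 of the 17 other genes also exclude 0, a count that the choice by p favours. Among all 46 tested pathway genes, 8 had an unadjusted p below 0.05, where the share among all genes was 10.5%. No gene shown passed an FDR of 0.05.

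In the order of mean level per length over all 8 libraries, Eng came first (63.0 CPM per kb), followed by Bmp7 (38.4), Bmpr1a (25.6), Bmp10 (20.5), Bmp6 (8.49), Bmpr2 (7.98), Acvrl1 (5.24), Bmp5 (4.49), Bmp4 (4.34) and Bmp2 (2.73). Most neighbours in this order had separate ranges over the 8 libraries. The exceptions were Bmpr1a with Bmp10, Bmp6 with Bmpr2, Acvrl1 with Bmp5, and Bmp5 with Bmp4. In WT the range of Bmp10 overlapped that of Bmpr1a and the range of Bmp6 overlapped that of Bmpr2, whereas in Flox-labelled libraries neither pair overlapped. The ligand of Acvrl1 was thus at a higher level per length than Acvrl1 itself in all libraries. These levels average over cell types that make the ligand and cell types that carry the receptor.

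The rest of the pathway was read from 6 lists with 57 genes, of which 46 passed the filter on low counts. None of the 46 was called, and 8 had an unadjusted p below 0.05 (3 with a positive and 5 with a negative log2 fold change), where the share among all genes was 10.5%. DESeq2, the likelihood ratio test and the fit without a filter each called 1 of them, Furin. Separate ranges were found in 4 of the 46, namely Crim1, Id3, Hand1 and Furin, beside 6.05% of all genes. The median log2 fold change of the 46 was -0.03. In each list the 3 genes with the smallest p were described.

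Of 9 further ligands only 2 were tested. Bmp3 averaged 2.07 ± 0.590 CPM in WT against 1.43 ± 0.344 CPM in Flox-labelled libraries (log2 fold change -0.54, FDR 0.476), and the means of Gdf6 were 2.64 ± 0.600 and 3.31 ± 0.308 CPM (0.33, FDR 0.545; SD, n = 4). Gdf2 (BMP9), the other ligand of Acvrl1, held at most 7 expected counts in any library and was not tested. Of the pair of ligands with high affinity for Acvrl1, Bmp10 passed the filter on low counts and Gdf2 did not.

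None of the 7 further receptors and co-receptors was called. Rgma and Rgmb, membrane-anchored BMP co-receptors, had log2 fold changes of 0.19 (FDR 0.568) and -0.09 (FDR 0.716). Tgfbr3 (betaglycan) was at -0.08 (FDR 0.661).

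Among 8 Smads and Smad ubiquitin ligases, the inhibitory Smad6, itself induced by BMP signalling, averaged 39.4 ± 2.44 CPM in WT against 44.7 ± 4.13 CPM in Flox-labelled libraries (SD, n = 4; log2 fold change 0.18, SE 0.0624, FDR 0.304). The signal-transducing Smad1 was at 24.7 ± 0.737 and 23.2 ± 1.03 CPM (-0.09, FDR 0.545). Smurf1, a ubiquitin ligase for Smad1 and Smad5, was at -0.06 (FDR 0.609).

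Of 11 tested target genes, 5 had a positive and 6 a negative log2 fold change. Id3, an inhibitor of basic helix-loop-helix factors, had levels of 76.1, 74.7, 77.6 and 78.2 CPM in WT libraries 1 to 4, against 70.3, 70.6, 66.3 and 72.7 CPM in Flox-labelled libraries 1 to 4. The groups did not overlap, but the log2 fold change of -0.13 (SE 0.0339) did not pass (FDR 0.127). Tmem100, a membrane protein induced through Acvrl1 in endothelial cells, averaged 8.76 ± 1.25 CPM in WT against 7.11 ± 0.652 CPM in Flox-labelled libraries (SD, n = 4; log2 fold change -0.31, FDR 0.343). Hand1, a transcription factor of the left ventricle, was at 14.0 ± 1.46 and 16.99 ± 2.66 CPM (0.27, FDR 0.390), and its log2 fold change was 0.16 without Flox-labelled library 4. These targets did not share a direction.

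Among the secreted antagonists and modulators, 12 of 15 were tested, with 6 log2 fold changes in each direction. Crim1, a transmembrane protein that binds BMPs, averaged 32.7 ± 2.03 CPM in WT against 36.8 ± 0.788 CPM in Flox-labelled libraries (0.17, SE 0.0473, FDR 0.174). Fstl1 (follistatin-like 1), by far the most abundant gene of the pathway lists in CPM, was at 949 ± 18.05 and 892 ± 59.5 CPM (-0.09, FDR 0.480). Without Flox-labelled library 4 it was at -0.14 (FDR 0.0480). Chrd (chordin) was near the detection limit, at 0.985 ± 0.308 and 1.501 ± 0.444 CPM (0.58, FDR 0.504).

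The proteases that process BMP precursors or their antagonists had negative log2 fold changes in 6 of 6 genes, with a median of -0.11. Furin, a proprotein convertase that cleaves BMP precursors, had levels of 144, 136, 135 and 138 CPM in WT libraries 1 to 4, against 126, 122, 119 and 132 CPM in Flox-labelled libraries 1 to 4. Its groups did not overlap, and the log2 fold change of -0.15 (SE 0.0368) had an FDR of 0.1002. Furin passed in 4 of its 20 alternatives, among them the fit without Flox-labelled library 4 (-0.18, FDR 0.0368). Pcsk6 (PACE4), a related convertase, was at -0.20 (FDR 0.441), and Tll1, a protease that cleaves chordin, at -0.37 (FDR 0.415).

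**Figure D4:**
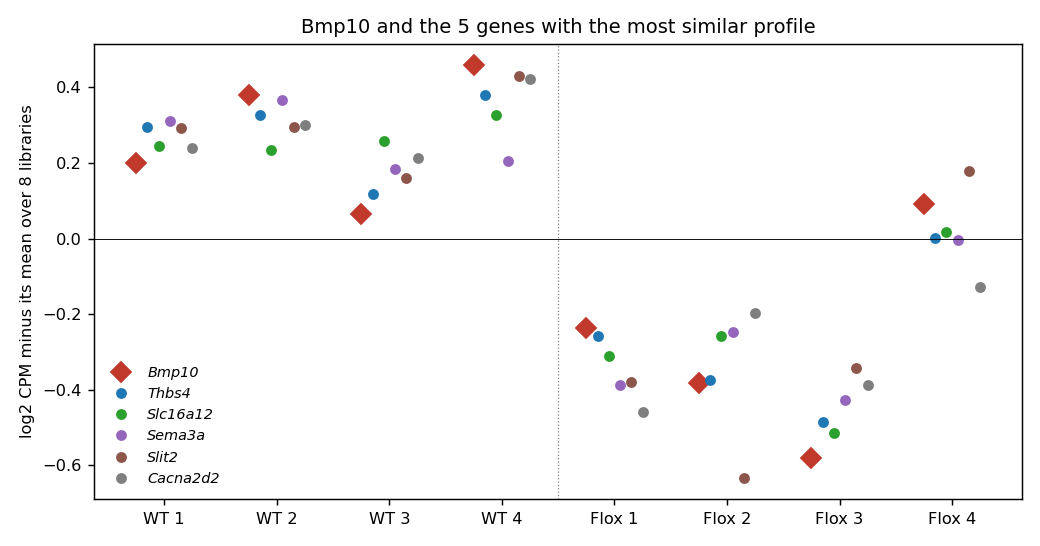
Log2 CPM of Bmp10 (red diamonds) and of the 5 genes most like it (circles), each centred on its own mean over the 8 libraries. The points are offset sideways for legibility. In each of the 6 genes Flox-labelled library 4 is the highest of its group.

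The genes most like Bmp10 were taken as those with a mean of at least 10 CPM and the smallest root mean square difference between centred log2 CPM profiles over the 8 libraries, among 9916 genes. They were Thbs4 (thrombospondin-4, a matrix glycoprotein), with a difference of 0.0700, Slc16a12 (a monocarboxylate transporter family member, 0.117), Sema3a (a secreted guidance ligand, 0.144), Slit2 (the ligand of Robo receptors, 0.148) and Cacna2d2 (an auxiliary calcium channel subunit, 0.159). The median over the 9916 genes was 0.353. Thbs4 had levels of 66.1, 67.6, 58.4 and 70.1 CPM in WT libraries 1 to 4, against 45.1, 41.6, 38.5 and 53.9 CPM in Flox-labelled libraries 1 to 4. Both Thbs4 and Bmp10 had their lowest value of each group in library 3 and their highest in library 4. The 5 genes had log2 fold changes between -0.59 and -0.53, and as they were chosen by their likeness to Bmp10, no test is given.

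Markers of the cells that make Bmp10 are given beside its values. Of 6 markers of trabecular myocardium, 4 had a negative log2 fold change (median -0.18) and none was called. Their sum was 2028 to 2921 CPM in WT and 1917 to 2702 CPM in Flox-labelled libraries, with the highest value of each group in library 4 and the lowest in library 3. Nppa, at a mean of 1879 CPM over the libraries, made up most of this sum. All 8 atrial markers, several of which embryonic ventricles also express, had a negative log2 fold change (median -0.22). Over all genes, 7780 of 15388 had a negative log2 fold change. Of the 8, 3 had an unadjusted p below 0.05, where the share among all genes was 10.5%. Only Kcnj3 was called (-0.46, FDR 0.0261), beside 0.526% of all genes. Their sum was 1671 to 1885 CPM in WT and 1658 to 1804 CPM in Flox-labelled libraries. The part of trabecular or atrial content in the level of Bmp10 was not tested.

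For Bmp6 and the ligands of other cell layers, markers of epicardium had a positive log2 fold change in 6 of 6 genes (median 0.10) and none was called. Their sum was 119 to 131 CPM in WT and 124 to 144 CPM in Flox-labelled libraries. Of 4 markers of the second heart field and outflow tract, 3 were tested and all 3 had a negative log2 fold change (median -0.23). Their sum was 18.2 to 22.6 CPM in WT and 15.3 to 19.4 CPM in Flox-labelled libraries. Valve mesenchyme and fibroblast markers had a median of -0.07 (6 of 8 negative), and their sum was 4252 to 5025 CPM in WT and 4082 to 4906 CPM in Flox-labelled libraries. Smooth muscle markers had a median of -0.12 (4 of 6 negative), whereas their sum was 1743 to 1822 CPM in WT and 1822 to 1908 CPM in Flox-labelled libraries, opposite in sign to the median. Most of this sum was Acta2, at a mean of 1365 CPM and a log2 fold change of 0.12. Macrophage markers (median 0.02, 4 of 6 positive) summed to 56.5 to 83.9 and 65.3 to 92.6 CPM, and erythroid markers (median 0.11, 6 of 7 positive) to 4268 to 9377 and 5848 to 9974 CPM. None of these was called, and the part of any of these cells in the level of Bmp6 was not tested.

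**Figure D5:**
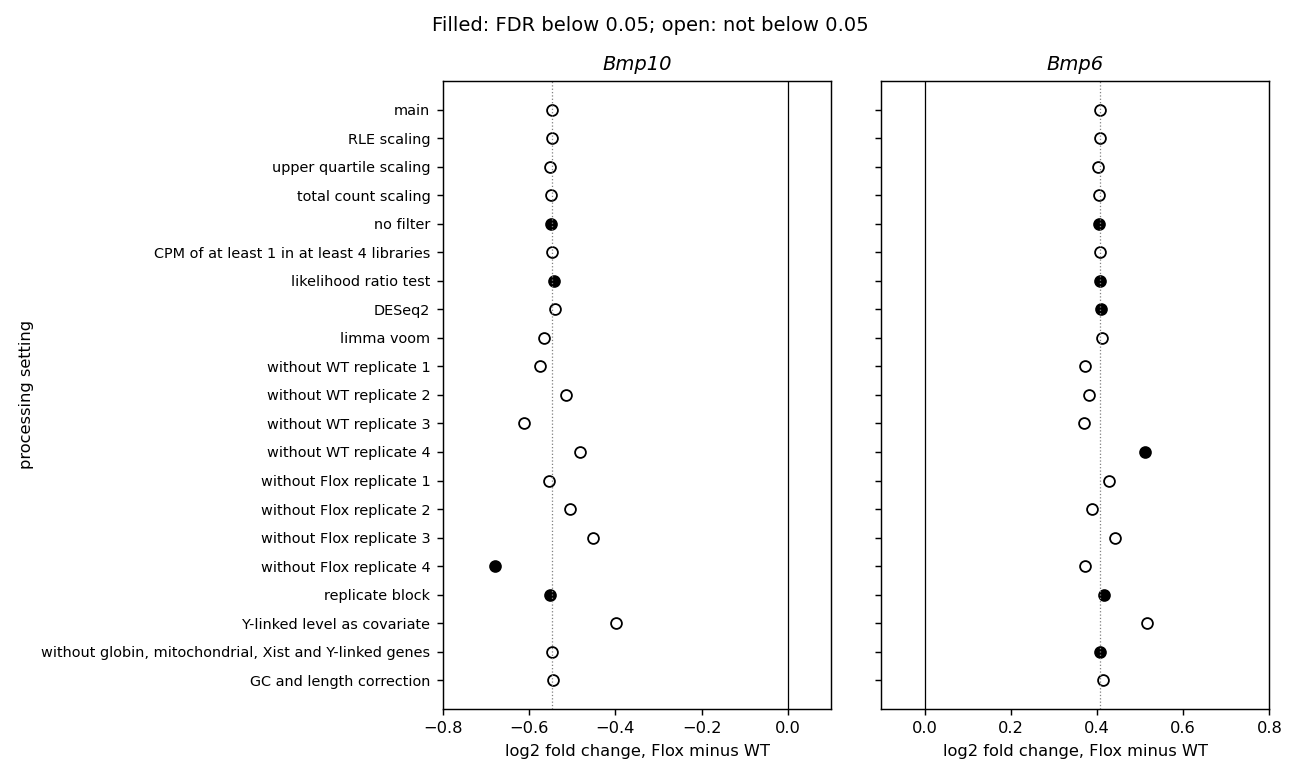
Log2 fold change (Flox-labelled minus WT) of Bmp10 (left) and Bmp6 (right) under the reported setting (top) and each alternative, filled where the FDR was below 0.05. All values lie on the same side of 0, from -0.68 to -0.40 for Bmp10 and from 0.37 to 0.52 for Bmp6, with 4 of 20 and 6 of 20 alternatives filled.

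The direction of both ligands held in each of the 20 alternative settings that were tried. The log2 fold change of Bmp10 ranged from -0.68 to -0.40, and that of Bmp6 from 0.37 to 0.52. The FDR was below 0.05 in 4 of 20 settings for Bmp10 and in 6 of 20 for Bmp6. In each of the remaining settings the difference did not pass.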

How the data were processed

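Polyadenylated RNA was made into directional libraries and sequenced as single reads of 60 bases, per the labels. Per the labels and table, the deposited values are expected counts from RSEM for each Ensembl gene (RSEM 1.3.1 and cutadapt on GRCm38, per the submitters' processing notes; Ensembl release 91, per the table's name). Of the deposited values, 18.1% were not whole, since RSEM divides a read that matches several genes. Expected counts were rounded. Symbols, positions and exonic lengths came from GENCODE M21 (GRCm38), which matched 53360 of 53465 identifiers.

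Genes were filtered with filterByExpr by group, scaled with TMM factors (0.988 to 1.01) and compared with edgeR 4.0.16 (glmQLFit, glmQLFTest, two-sided, group as the only term) in R 4.3.3, and p-values were adjusted over all of them (Benjamini-Hochberg). CPM use the TMM-scaled totals. SE and intervals derive from the F statistic. The fits were tested on simulated data. DESeq2 1.42.0 and limma 3.58.1 served as alternatives, and figures were drawn with matplotlib 3.10.9. Total counts per library are given with the results, and their number limits the precision of genes with few counts.

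The members and the gene and marker lists were chosen with earlier results of these data known. The genes named were the 10 members, Nrg1, the 3 tested genes with the smallest p in each of 6 pathway lists, and the 5 genes most like Bmp10 in profile, not counting clone-based and predicted-model symbols. Others were named after their values were seen. Protein sequences were not used here.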

Additional observations from a re-analysis of the deposited data

Results flagged for a closer look

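Among 70 groups of 4 values examined (33 named genes, the Y-linked sum and Xist, in each genotype), 5 had an extreme value set apart from the rest; about 3.5 such groups arise by chance. WT library 4 had 34.4 CPM of Bmp6 and the other WT libraries 26.2 to 26.9 CPM, and this library is the one without Xist. Gdf6 was at 3.78 CPM in Flox-labelled library 2, against 3.13 to 3.18 CPM. WT library 3 had 14.03 CPM of Rgmb and the others 16.0 to 16.3 CPM. For Hand1, WT library 3 had 11.9 CPM and the others 14.6 to 15.0 CPM, and Flox-labelled library 4 had 20.95 CPM and the others 15.2 to 15.9 CPM. The cause of these deviations was not tested.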

How the results depend on the processing

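Bmp10 was lower and Bmp6 and Nrg1 were higher in each alternative. Among the named genes, 376 of 397 values kept their direction and their side of the threshold when no library was left out, and 227 of 264 when 1 was. The cause of the shifts was not tested. Members called were Bmp6 (1) and Bmp10 (1) without a filter, with the likelihood ratio test and at FDR 0.1, and Bmp6 alone (1) with DESeq2 and without globin, mitochondrial, Xist and Y-linked genes. Bmp10 was at -0.55 without a filter and -0.54 with the likelihood ratio test. Each of these tests and DESeq2 called 1 pathway gene lower (Furin).

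Over all genes there were 48 higher and 33 lower calls, against 154 and 184 without a filter, 124 and 118 with the likelihood ratio test, 102 and 93 with DESeq2, 12 and 4 with the Y-linked covariate, 95 and 95 at FDR 0.1, and 0 and 3 at FDR 0.01 (edgeR, where 789 genes were higher at an unadjusted p below 0.05). Higher calls numbered 30 with limma voom and 23 after correction for GC and length. With the Y-linked covariate the signs of Bmp4 (0.15), Bmpr1a (-0.0059) and Eng (0.027) changed, and that of Eng (0.0019) also with the GC and length correction.

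Leaving out 1 library gave 0 to 1 members higher, 0 to 1 lower, 0 to 2 pathway genes lower (Furin and Fstl1 without Flox-labelled library 4), and 6 to 61 higher and 5 to 81 lower calls over all genes. Bmp10 ranged from -0.68 to -0.45. Signs changed for Bmp2 (-0.18 to 0.052), Bmp4 (-0.12 to 0.062), Bmp5 (-0.13 to 0.094), Bmpr1a (-0.012 to 0.018), Bmpr2 (-0.027 to 0.012), Acvrl1 (-0.10 to 0.042) and Eng (-0.037 to 0.029).

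Deviations of same-numbered libraries correlated at 0.0998, 0.0474, 0.0447 and 0.121 across genes, each above those of other pairs (-0.0877 to 0.0195). As not all were over 0.1, the shared numbers were not taken as pairs. With the replicate block, 1 member was called higher (Bmp6, 0.42) and 1 lower (Bmp10, -0.55), and 93 genes in all. No member shares enough exonic bases with a partner for the summing of overlapping genes to apply.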
